A study of Mus musculus with 12 samples.

Results

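Old mice carry more hematopoietic stem cells (HSCs) than young mice, and several genes are commonly reported to be higher in HSCs of old animals. 9 of them, *Clu*, *Nupr1*, *Aldh1a1*, *Sult1a1*, *Klrb1c*, *Selp*, *Jam2*, *Ehd3*, and *Wwtr1*, were followed here through cells in which *Rad21* had been knocked down. *Rad21* encodes the subunit that closes the cohesin ring, the complex that holds chromatin loops and sister chromatids together. All 9 genes were found by symbol among the 46078 counted genes. They were chosen from the genes linked to HSC ageing with the all-gene results of both knockdown comparisons already known, so the counts of members that pass a test are a description of these libraries and give no independent support. The labels give no age of the donor or recipient mice, so the libraries make no comparison of old with young cells.

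The 12 RNA sequencing libraries fell into 4 groups of 3. All were made from LSK cells (lineage-negative, Sca-1+, c-Kit+ bone marrow cells, a mixture of HSCs and progenitors) of C57BL/6 mice that were infected with a lentivirus encoding GFP and an shRNA. The shRNA targeted *Rad21* (shRad21) or, in control cells, luciferase, which mouse cells lack (shLuci). For the cultured groups, LSK cells were kept for 3 d after isolation and infection in medium with thrombopoietin and stem cell factor, and the GFP+CD48-Sca-1+ fraction was collected. For the in vivo groups, infected LSK cells were transplanted into lethally irradiated mice and GFP+ LSK cells were reisolated (3 mo after transplantation by the labels, whereas the study's methods give a later time). The library kit, the sorting gate, and the sequencing lane went with the setting and cannot be told apart from it. Nothing in the labels says whether the replicates of a group were separate mice or pools, so the p-values measure the spread between these libraries.

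The libraries held between 15235129 and 29846689 counts, and 3 counts, taken as the floor of detection, corresponded to between 0.1065 and 0.21 CPM (read counts scaled to a common library size). *Rad21* itself was at 401.6 ± 17.8 CPM (SD, n = 3) in shLuci cells and 139.3 ± 13.0 CPM in shRad21 cells in culture, and at 122.4 ± 3.80 and 45.0 ± 2.38 CPM in vivo, with no overlap in either experiment. The 12 fixed markers of stem and progenitor cells, among them *Kit* and *Ly6a* (Sca-1), had at least 3 counts in every library. Expression is given below as CPM scaled by the TMM method over all 12 libraries, changes as log2 fold changes (shRad21 over shLuci) with their standard errors (SE), and p-values as edgeR's quasi-likelihood p adjusted over all tested genes, with 0.05 as threshold. In bulk libraries, a change in a gene's RNA per cell and a change in the share of cells that express it cannot be told apart, and this holds for each gene below.

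The proteins of these genes work in different places. Clusterin (*Clu*) is a secreted chaperone that binds misfolded proteins outside the cell, and *Nupr1* encodes a small nuclear protein that is induced by cellular stress. *Aldh1a1* and *Sult1a1* encode cytosolic enzymes, the first an aldehyde dehydrogenase that makes retinoic acid from retinaldehyde, the other a sulfotransferase that adds sulfate to phenols. *Klrb1c* (the NK1.1 antigen of C57BL/6 mice), *Selp* (P-selectin), and *Jam2* (a junctional adhesion molecule) encode cell surface proteins, *Ehd3* an ATPase of endosome recycling, and *Wwtr1* the Hippo pathway co-activator TAZ, which acts through TEAD transcription factors.

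The genes lay on 8 chromosomes, and *Nupr1* and *Sult1a1* were the only members on the same chromosome. Promoters, from 250 bases before to 50 bases from the start onward, were found in the RefSeq table (GRCm38.p6) for 7 of the 9 genes, 9 promoters in all, and not for *Clu* and *Jam2*. 4 are printed, 5' to 3' on the gene's strand, for this pair, which lies close together and rose in vivo, and for 2 genes with large changes there. Capitals mark letters of the motifs searched on both strands, and none of the marked motifs overlapped another. In *Nupr1* (chr7:126625421-126625720, minus strand) they mark TGATGCAA, an element bound by ATF4 with C/EBP factors, read on the other strand. In *Sult1a1* (chr7:126676369-126676668, minus strand) they mark the TEAD motif GGAATG, likewise on the other strand, in *Wwtr1* (chr3:57575861-57576160, minus strand) the same motif on the gene's strand, and in *Klrb1c* (chr6:128788592-128788891, minus strand) the RUNX motif TGTGGT.
Nupr1: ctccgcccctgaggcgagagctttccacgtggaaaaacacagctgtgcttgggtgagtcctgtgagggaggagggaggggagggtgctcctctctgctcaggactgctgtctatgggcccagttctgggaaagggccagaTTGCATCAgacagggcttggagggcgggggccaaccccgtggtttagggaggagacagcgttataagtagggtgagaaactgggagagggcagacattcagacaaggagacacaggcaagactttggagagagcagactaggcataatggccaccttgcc
Sult1a1: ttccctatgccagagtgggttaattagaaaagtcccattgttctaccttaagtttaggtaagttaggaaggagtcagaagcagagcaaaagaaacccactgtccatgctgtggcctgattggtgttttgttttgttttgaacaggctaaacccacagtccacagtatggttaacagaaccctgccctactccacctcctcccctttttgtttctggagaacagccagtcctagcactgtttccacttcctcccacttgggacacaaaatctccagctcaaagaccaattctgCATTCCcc
Wwtr1: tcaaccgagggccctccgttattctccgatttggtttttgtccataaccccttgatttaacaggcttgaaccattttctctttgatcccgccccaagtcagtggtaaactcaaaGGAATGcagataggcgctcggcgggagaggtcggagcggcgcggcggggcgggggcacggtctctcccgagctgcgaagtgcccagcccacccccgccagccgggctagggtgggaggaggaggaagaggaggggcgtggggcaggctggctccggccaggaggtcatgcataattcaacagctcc
Klrb1c: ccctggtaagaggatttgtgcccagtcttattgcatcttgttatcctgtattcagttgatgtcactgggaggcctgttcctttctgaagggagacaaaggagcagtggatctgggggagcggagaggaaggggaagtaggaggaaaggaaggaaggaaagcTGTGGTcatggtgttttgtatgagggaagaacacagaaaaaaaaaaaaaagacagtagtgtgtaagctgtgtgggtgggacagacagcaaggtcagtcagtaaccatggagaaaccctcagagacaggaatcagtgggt

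The ATF4-C/EBP element of *Nupr1*, at base -110 from the RefSeq start, was held by 0.895% of all 32851 promoters of the same length. GGAATG was held by 14.7% of them and, among the members, by *Sult1a1*, *Wwtr1*, and *Aldh1a1*. TGTGGT was held by 16.8%, the AP-1 motif TGANTCA by 7.81% (among the members *Selp* and *Aldh1a1*), and the GATA motif AGATAA by 11.2% (*Aldh1a1*). Part of the CTCF motif, AGGGGGC (10.6% of all promoters), and an NF-κB-like motif, GGANTTTCC (1.25%), were in none of the 9 promoters. These matches describe letters in a window and not binding.

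In vivo, 8 of the 9 genes rose with *Rad21* knockdown and *Selp* did not pass the test. Their median log2 fold change was 2.20, beside -0.0019 for all 15938 tested genes, of which 5.65% rose and 5.32% fell. The summed level of the 9 genes was between 213.6 and 315.8 CPM in the shLuci libraries and between 613.2 and 678.3 CPM in the shRad21 libraries. In culture, where 8 of the 9 could be tested, *Clu* and *Nupr1* rose and *Ehd3* and *Jam2* fell, beside 6.18% of 15543 tested genes that rose and 8.06% that fell. The median was 0.50, beside -0.0039 for all tested genes, and the summed levels of the groups overlapped, with 100.9 to 152.1 CPM in shLuci and 103 to 163.8 CPM in shRad21 cells.

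**Figure D1:**
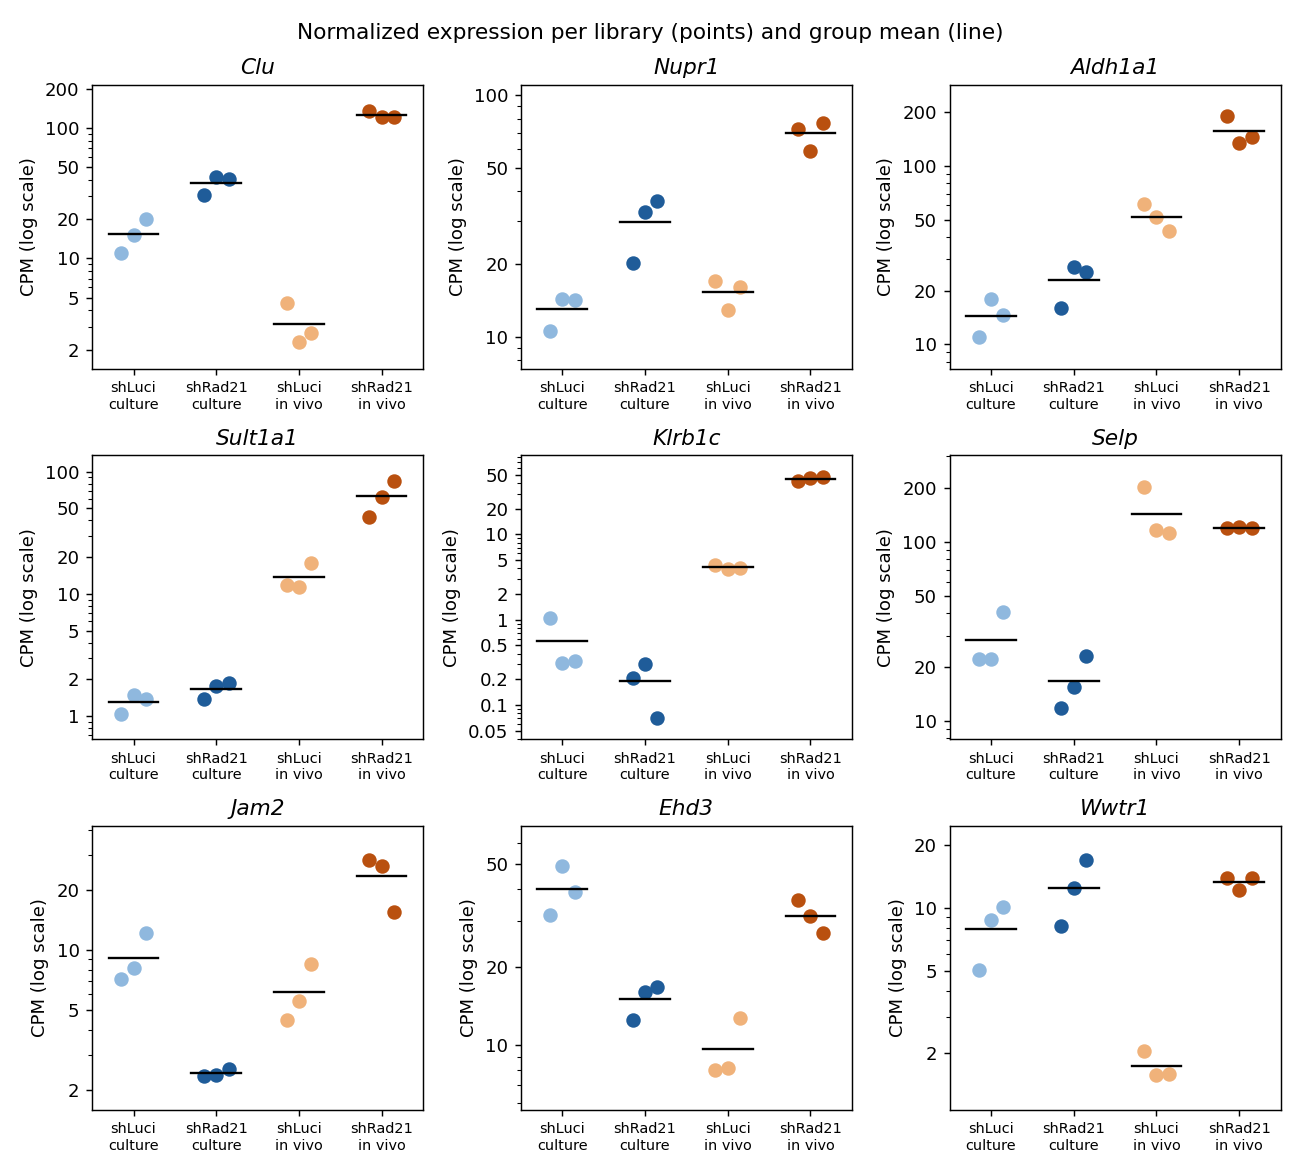
Expression of the 9 genes in every library (points, CPM on a log axis that differs between panels) in the 4 groups, with the group mean as a line. In vivo, every shRad21 library lies above every shLuci library for each gene but *Selp*, and in culture *Ehd3* and *Jam2* lie below their controls. Of 15938 tested genes in vivo, 2118 were higher and 2529 lower without overlap, and of 15543 in culture, 2377 were higher and 2522 lower.

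*Clu* (ENSMUSG00000022037, chr14:65968483-65981547 of GRCm38, plus strand) had the largest rise of the 9 genes in vivo. The shLuci libraries 1 to 3 held 4.55, 2.27, and 2.66 CPM and the shRad21 libraries 133.9, 120.5, and 122.2 CPM. The control cells thus had between 45 and 102 reads of *Clu* each, and the knockdown cells between 2589 and 2917. The mean level was 39.7-fold higher, the log2 fold change was 5.31 (SE 0.18), and the adjusted p was 4.69e-07. In culture, *Clu* was at 11.1, 15.1, and 20.1 CPM in shLuci and at 30.4, 42.2, and 40.5 CPM in shRad21 cells, again without overlap, a log2 fold change of 1.28 (SE 0.19, adjusted p = 0.001403). Of 8 genes fixed as clusterin receptors and partners, 6 were tested in each experiment. None of them passed in vivo, and only *Vldlr*, a lipoprotein receptor, passed in culture, with a log2 fold change of -0.41 (adjusted p = 0.008916).

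*Nupr1* (ENSMUSG00000030717, chr7:126623249-126630861, minus strand) rose in both experiments. In vivo it went from 16.9, 12.8, and 16.1 CPM in shLuci to 72.4, 59.0, and 76.8 CPM in shRad21 cells (4.54-fold, log2 2.20, SE 0.13, adjusted p = 2.447e-05). In culture it went from 10.6, 14.3, and 14.1 CPM to 20.1, 32.9, and 36.6 CPM (2.29-fold, log2 1.20, SE 0.21, adjusted p = 0.003088). The groups did not overlap in either. The other 14 genes fixed around *Nupr1*, mostly of the ATF4 stress response, did not follow this pattern in culture: 7 fell, 0 rose, and their median was -0.46. Of all tested genes there, 8.06% fell and 6.18% rose. *Chac1*, which degrades glutathione, fell by 2.43 (log2, adjusted p = 0.001098), and *Asns*, the asparagine synthetase, fell by 1.61 (adjusted p = 0.002358). In vivo, 12 of the 14 were tested and 3 rose, *Asns* (0.62), *Trib3* (0.72), and *Ppp1r15a* (0.98), beside 5.65% of all tested genes. *Atf4* itself was at 137.6 ± 9.40 and 137.9 ± 10.4 CPM in vivo.

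*Aldh1a1* (ENSMUSG00000053279, chr19:20492715-20643465, plus strand) was among the most abundant of the 9 in reisolated cells, with 60.8, 51.9, and 42.9 CPM in shLuci and 189.7, 135.2, and 145.5 CPM in shRad21 libraries. The rise was 3.02-fold in the means (log2 1.61, SE 0.15, adjusted p = 0.0001992). In culture its ranges overlapped, with 10.9, 17.9, and 14.5 CPM against 15.9, 27.2, and 25.5 CPM, and the log2 value of 0.66 (SE 0.21) did not pass (adjusted p = 0.06588). It passed with the replicate number as a block (below), in DESeq2 (adjusted p = 0.0151), and without shRad21 replicate 1 (log2 0.88, adjusted p = 0.0102). *Aldh1a7*, the paralog next to it, had a mean of at most 0.995 CPM in any group. Of 17 other genes of retinoid metabolism and response, 10 were tested in vivo: *Rdh10*, which makes retinaldehyde from retinol (1.56, adjusted p = 0.0009557), and the receptor *Rarg* (0.80, adjusted p = 0.003736) rose, and the receptor *Rxrb* fell by 0.28 (adjusted p = 0.01209). In culture, 9 were tested, of which 1 rose (*Rxra*) and 2 fell (*Rdh11* and *Rxrb*).

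*Sult1a1* (ENSMUSG00000030711, chr7:126672865-126676432, minus strand) was low in culture and rose in vivo. The reisolated shLuci cells held 11.8, 11.4, and 17.9 CPM and the shRad21 cells 42.2, 62.1, and 83.9 CPM, so the groups were apart although the shRad21 libraries spread widely. The log2 fold change was 2.21 (SE 0.25, adjusted p = 0.000594). In culture, between 15 and 53 reads per library gave 1.05, 1.49, and 1.40 CPM against 1.40, 1.76, and 1.88 CPM (log2 0.35, SE 0.25, adjusted p = 0.4205). None of the other genes of sulfate transfer that could be tested passed in either experiment (4 of 9 tested in culture, 3 in vivo), and *Papss1*, which makes the sulfate donor, was at 81.5 ± 1.04 and 91.2 ± 2.51 CPM in vivo (adjusted p = 0.1051).

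*Sult1a1* and *Nupr1* are separated by 42004 bp, and *Sgf29* (a chromatin reader subunit on the other strand) lies between them and shares 4.05% of the exonic bases of *Sult1a1*. *Sgf29* was at 69.5 CPM in shLuci and 70.8 CPM in shRad21 cells in vivo (log2 0.043, SE 0.089, adjusted p = 0.8337), so the 2 members rose by nearly equal amounts on either side of a gene whose level differed by less than its SE. The flanking genes *Il27* (0.50), *Apobr* (-0.40), *Slx1b* (-0.08), and *Bola2* (0.07) did not pass. In culture, *Apobr*, a lipoprotein receptor gene, rose (0.51, adjusted p = 0.001471) and *Nupr1* rose, whereas *Sult1a1* and *Sgf29* did not pass.

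*Klrb1c* (ENSMUSG00000030325, chr6:128778485-128789215, minus strand) was tight within groups and far apart between them in vivo. It was at 4.37, 3.89, and 4.08 CPM in shLuci and at 42.3, 45.2, and 46.9 CPM in shRad21 cells (10.9-fold, log2 3.46, SE 0.12, adjusted p = 4.69e-07). In culture it was near the floor, with 15, 6, and 7 reads in shLuci and 5, 6, and 2 reads in shRad21 libraries, and was removed by the filter on low counts. Tested without that filter, it did not pass there (adjusted p = 0.0661). The annotation assigns 13.95% of its exonic bases also to *Gm44511*, which is not analysed here, and the strand setting of the counting is not given in the sources used here.

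*Klrb1c* is best known as a marker of natural killer (NK) cells, so the other NK genes are given beside it. Of 12 further NK genes, 8 were tested in vivo with a median of -1.10: *Nkg7*, a granule protein (340 ± 55.9 to 206.2 ± 14.6 CPM), and *Il2rb*, the interleukin 2 receptor beta chain (3.75 ± 1.69 to 1.53 ± 0.30 CPM), fell, the granzyme *Gzmb* rose (1.41 ± 1.01 to 4.36 ± 0.70 CPM), and *Ncr1*, the NK-defining receptor NKp46, had means of 1.52 and 0.67 CPM (adjusted p = 0.1494). Their summed level was between 315 and 414.3 CPM in shLuci and between 198.6 and 225.5 CPM in shRad21 libraries. *Nkg7* alone made up most of this sum, and *Gzmb* moved the other way. None of the 12 was at 0 in either group. The neighbouring receptor genes *Klrb1b* and *Klrb1* had means of at most 1 CPM and were not tested, and *BC035044*, a lectin-like gene, fell from 191.3 to 77.3 CPM (log2 -1.29, adjusted p = 0.003503). Of the 7 genes fixed as its family and their Clec2 ligands, 3 were tested, and *Klrb1f*, *Clec2d*, and *Clec2i* all fell in culture, *Clec2d* by 1.56 (adjusted p = 1.526e-05), while none of them passed in vivo.

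**Figure D2:**
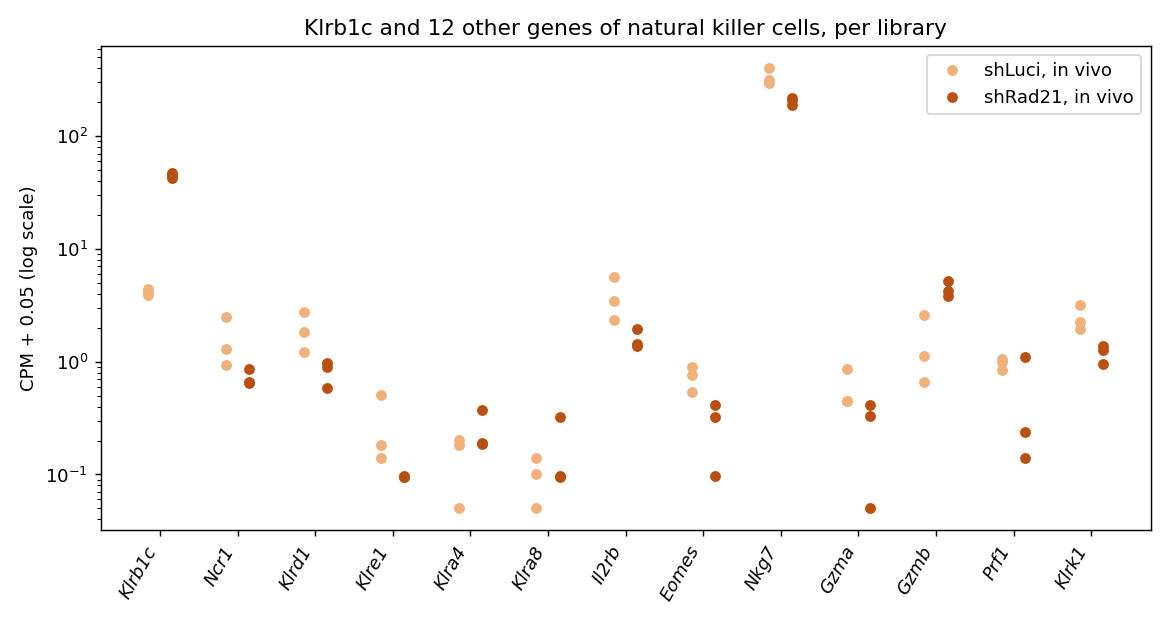
*Klrb1c* and 12 other genes of NK cells in the 6 in vivo libraries (points, CPM with 0.05 added, log axis). The *Klrb1c* points of the 2 groups are far apart, with shRad21 higher, whereas *Nkg7*, the most abundant of the others, is lower.

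*Selp* (ENSMUSG00000026580, chr1:164115264-164150026, plus strand) was the member that did not rise. In vivo the shLuci libraries held 202.8, 116.0, and 112.1 CPM and the shRad21 libraries 119.5, 121.1, and 119.1 CPM. Replicate 1 of shLuci stood above the 5 other libraries, which lay within 10 CPM of each other. The log2 value was -0.24 (SE 0.19, adjusted p = 0.5), and without that library it was 0.09 (adjusted p = 0.521), so its sign rested on 1 library and the change was under the spread between replicates. In culture the libraries held 22.3, 22.1, and 40.4 CPM in shLuci and 11.8, 15.5, and 23.0 CPM in shRad21 cells, with overlapping ranges (log2 -0.75, SE 0.26, adjusted p = 0.08937), and without shRad21 replicate 3 the fall passed (log2 -1.04, adjusted p = 0.0261). Within each pair of same-numbered libraries *Selp* was lower in shRad21, and with the replicate number as a block (below) the fall passed too. 14.1% of its exonic bases are shared with *Gm16548* and *Gm16587*, transcripts of the other strand with at most 31 reads in any library.

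The gene beside *Selp* moved differently. *F5*, coagulation factor V, starts 1812 bp beyond it and rose in vivo from 1.68 to 7.76 CPM (log2 2.23, SE 0.28) and in culture from 11.3 to 20.3 CPM (log2 0.86). Among the 8 genes fixed as other selectins, selectin ligands, and ligand-building enzymes, *Selplg*, the ligand PSGL-1, and *Fut7*, its fucosyltransferase, fell in both experiments, *Fut7* by 0.89 in vivo (adjusted p = 0.0001413) and by 0.54 in culture. In culture *Fut4* also fell and *St3gal4*, a sialyltransferase, rose. *Sele*, the endothelial selectin, was at 0 in the cultured shLuci libraries and had a mean of at most 0.35 CPM elsewhere.

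*Jam2* (ENSMUSG00000053062, chr16:84774123-84825928, plus strand) changed in opposite directions. In culture it was at 7.21, 8.15, and 12.2 CPM in shLuci and at 2.34, 2.37, and 2.56 CPM in shRad21 cells, that is 26.4% of the control mean (log2 -1.92, SE 0.22, adjusted p = 0.0002808). In vivo it was at 4.46, 5.56, and 8.52 CPM in shLuci and at 28.4, 26.3, and 15.5 CPM in shRad21 cells (3.79-fold, log2 1.94, SE 0.28, adjusted p = 0.001967). Neither pair of groups overlapped. Of 6 related adhesion genes, *Esam* rose in both experiments (1.33 in culture, 1.42 in vivo, adjusted p = 3.184e-05 and 3.863e-06). *F11r* (0.67) and *Jam3* (1.44) rose in vivo, while *Jaml* fell by 1.31. In culture, 4 of the 6 were tested and none passed as lower, although 3 had values below 0, 1 of them without overlap. *Jam3* was at 22.8 ± 1.83 and 21.2 ± 1.92 CPM there.

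*Ehd3* (ENSMUSG00000024065, chr17:73804134-73832094, plus strand) likewise fell in culture and rose in vivo. The cultured cells held 31.7, 49.0, and 39.0 CPM in shLuci and 12.5, 16.0, and 16.7 CPM in shRad21 libraries, that is 37.8% of the control mean (log2 -1.40, SE 0.16, adjusted p = 0.0003515). The reisolated cells held 8.03, 8.19, and 12.7 CPM in shLuci and 36.1, 31.5, and 27.1 CPM in shRad21 libraries (3.27-fold, log2 1.72, SE 0.19, adjusted p = 0.0005012). Its paralogs *Ehd1* (log2 -0.56, adjusted p = 0.003681) and *Ehd2* (log2 -1.47, adjusted p = 0.0146) fell in culture too, but were at -0.07 and -0.71 in vivo and did not pass there. Of the 8 genes fixed as the family and its partners, *Rab11a*, a GTPase of recycling endosomes, was the only riser in vivo (0.40, adjusted p = 0.001617). *Xdh*, xanthine dehydrogenase, 51801 bp from *Ehd3*, rose in both experiments (0.89 and 1.20).

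*Wwtr1* (ENSMUSG00000027803, chr3:57455649-57575910, minus strand) rose in vivo from 2.05, 1.57, and 1.60 CPM in shLuci to 13.9, 12.2, and 14.0 CPM in shRad21 cells. These levels came from between 31 and 46 reads and between 272 and 302 reads per library (7.68-fold, log2 2.95, SE 0.18, adjusted p = 2.476e-05). In culture it was at 5.04, 8.76, and 10.1 CPM against 8.23, 12.4, and 16.9 CPM, with overlap (log2 0.65, SE 0.28, adjusted p = 0.159), and passed without shRad21 replicate 1 (log2 0.89, adjusted p = 0.0436) and with the replicate block (below). *Yap1*, its paralog, had means of 3.17 and 2.37 CPM in culture and 0.26 and 0.11 CPM in vivo, where it was not tested. Of 19 other Hippo pathway genes, 14 were tested in culture, where 4 rose and 1 fell (*Axl*, a receptor kinase, -1.28, adjusted p = 0.0001274), and 13 in vivo, where 2 rose. *Tead2*, a TEAD factor, rose in both experiments (0.36 and 1.04), as did *Amotl2*, which binds YAP and TAZ (1.57 in culture, 3.49 in vivo, adjusted p = 0.009334 and 0.0001185). *Axl*, which fell in culture, did not pass in vivo, and *Ccn1*, *Ccn2*, and *Ankrd1* were too low to be tested in either experiment. *Tm4sf1*, 153661 bp from *Wwtr1*, rose in vivo from 1.17 to 10.9 CPM (log2 3.23), while the protein-coding genes in between and beyond were untested or, for *Commd2*, at -0.03.

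**Figure D3:**
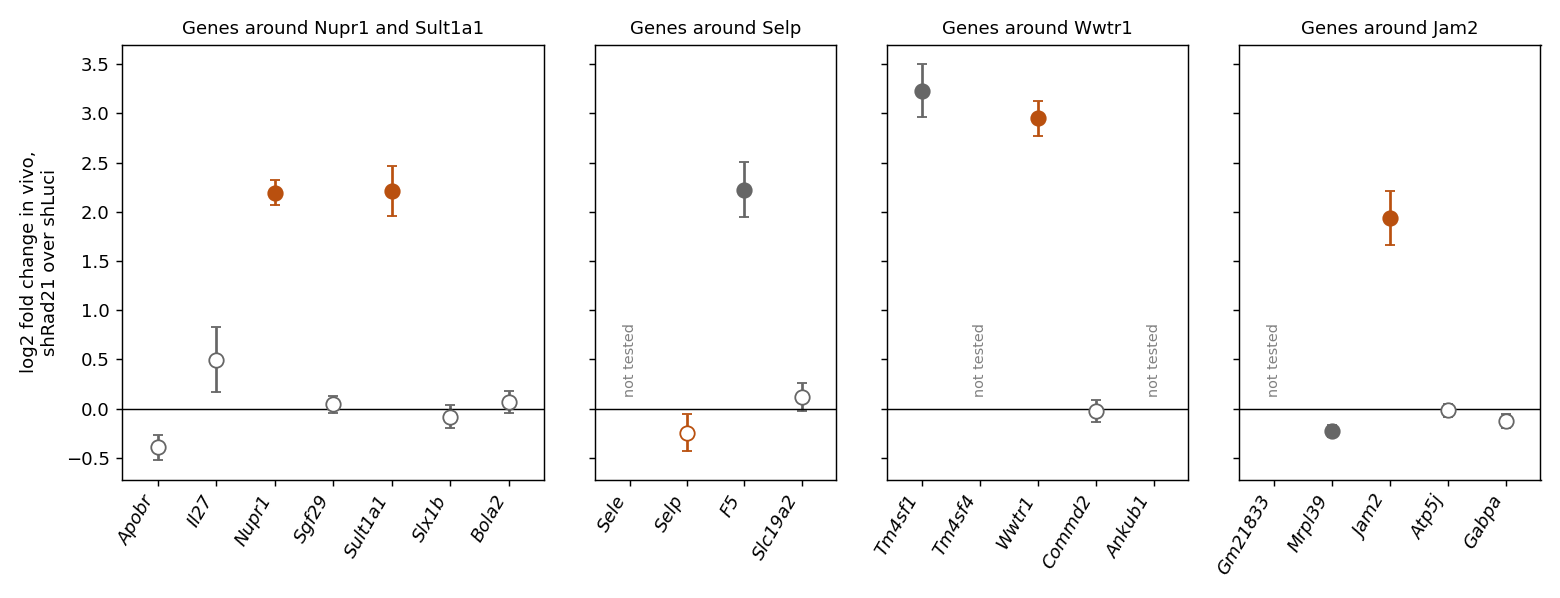
Log2 fold changes in vivo (shRad21 over shLuci, bars: SE) of the members (orange) and protein-coding genes near them (grey) in chromosomal order, at 4 of the loci. Filled points passed the threshold. *Nupr1* and *Sult1a1* are at 2.20 and 2.21 with *Sgf29* between them at 0.04.

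Over all 33 protein-coding genes that lie within 2 genes of a member, a set made with their values in view, 22 could be tested in vivo. 3 rose (*F5*, *Xdh*, *Tm4sf1*) and 3 fell, among them *BC035044* and *Mrpl39*, the latter by 0.23. Of all tested genes in vivo, 5.65% rose and 5.32% fell. In culture, 4 of 18 neighbours rose and 3 fell, beside 6.18% and 8.06% of all tested genes. The median of the neighbours was 0.012 in vivo and 0.064 in culture.

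**Figure D4:**
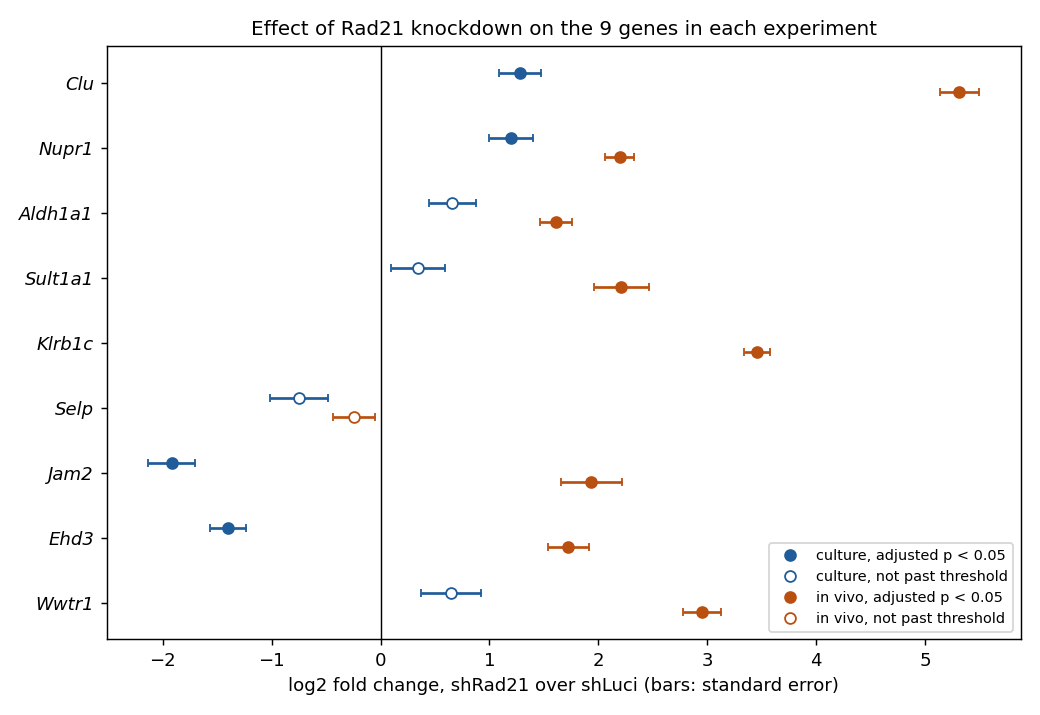
Log2 fold change of each member with *Rad21* knockdown in culture (blue) and in vivo (orange), with SE. Filled points passed the threshold, and *Klrb1c* has no culture point because it was not tested there. Each in vivo value lies to the right of the culture value of the same gene.

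The change with knockdown was smaller or more negative in culture than in vivo for all 9 genes, and of the 8 genes tested in both settings, this difference itself passed the test for 5, *Clu*, *Sult1a1*, *Ehd3*, *Jam2*, and *Wwtr1*, beside 4.67% of 17050 genes that passed in either direction. *Jam2* (culture minus in vivo -3.84, SE 0.39, adjusted p = 0.0001073) and *Ehd3* (-3.11, SE 0.28, adjusted p = 4.226e-05) differed in sign between the settings. For *Clu* the difference was -4.03 (SE 0.31, adjusted p = 1.664e-05) between rises of unequal size. *Klrb1c* is left out of that count, because it entered the fit of 12 libraries through the in vivo libraries where it is high. Its value was -4.92 (SE 0.57), with a culture part that rests on the few reads given above. *Wwtr1* (-2.29, adjusted p = 0.003097) and *Sult1a1* (-1.85, adjusted p = 0.02006) had smaller differences, and that of *Sult1a1* no longer passed without shLuci replicate 2 (adjusted p = 0.083), shLuci replicate 3 (0.0643), or shRad21 replicate 1 (0.0578) of the culture. *Nupr1* (-0.99, adjusted p = 0.05374), *Aldh1a1* (-0.95, adjusted p = 0.0815), and *Selp* (-0.50, adjusted p = 0.5642) did not pass. The difference for *Nupr1* passed in DESeq2 (0.00844), with upper-quartile scaling (0.0472), with scaling by library size only (0.0482), with at least 10 counts in every library (0.035), and with no filter (1.09e-06). It also passed without shLuci replicate 1 (0.0451) or shRad21 replicate 3 (0.0332) of the culture or shRad21 replicate 2 in vivo (0.0426), but not without any of the other libraries.

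Same-numbered libraries of the culture deviated together from their group means (correlations of 0.17 to 0.215, beside -0.248 to 0.042 for different numbers). The replicate number was therefore also used there as a block. With this replicate block, 7 of the 8 tested members passed in culture, 4 higher and 3 lower. Of all 15543 tested genes, 1447 passed as higher and 1739 as lower with the block. *Aldh1a1* (0.67, adjusted p = 0.000252) and *Wwtr1* (0.66, adjusted p = 0.00116) then rose, *Selp* fell (-0.74, adjusted p = 7.94e-05), and *Sult1a1* still did not pass (0.37, adjusted p = 0.35). With the block in the difference between settings, *Nupr1* (-1.003, adjusted p = 0.00237) and *Aldh1a1* (-0.94, adjusted p = 0.00255) passed as well, 7 of the 8 genes tested in both settings. Of all 17050 tested genes, 991 passed in that fit. In that fit the block covered the numbers of both experiments. In vivo, same-numbered libraries correlated only weakly (0.036 to 0.0576, beside -0.0802 to 0.0266 for different numbers). Whether the in vivo numbers stand for pairs is not known.

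The control cells alone already differed between the settings, by contrasts that share the shLuci libraries with the knockdown comparisons. *Clu* (15.4 ± 4.54 CPM in culture, 3.16 ± 1.22 CPM in vivo), *Ehd3* (39.9 ± 8.70 and 9.65 ± 2.67 CPM), and *Wwtr1* (7.96 ± 2.61 and 1.74 ± 0.27 CPM) were higher in culture, with log2 values of 2.30, 2.05, and 2.21. *Sult1a1* (1.31 ± 0.23 and 13.7 ± 3.66 CPM), *Klrb1c* (0.56 ± 0.42 and 4.12 ± 0.24 CPM), *Selp* (28.3 ± 10.5 and 143.6 ± 51.3 CPM), and *Aldh1a1* (14.5 ± 3.48 and 51.8 ± 8.93 CPM) were lower in culture, with log2 values of -3.35, -2.98, -2.33, and -1.82. Since 37.1% of 17050 tested genes were higher and 37.1% were lower in this contrast, 3 and 4 of 9 are near the shares of all genes. The 4 lower members include *Klrb1c*, which entered this fit through the in vivo libraries where it is high. With at least 10 counts in every library, *Klrb1c* was not tested and 6 members passed. *Nupr1* (13.0 ± 2.12 and 15.3 ± 2.17 CPM, adjusted p = 0.3375) and *Jam2* (9.17 ± 2.63 and 6.18 ± 2.10 CPM, adjusted p = 0.06137) did not pass, and *Jam2* passed as higher in culture without shLuci replicate 1 of the culture (0.0354) or without replicate 3 of shLuci (0.00996) or of shRad21 (0.0349) in vivo.

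Per kilobase of exon, so that the genes can be set beside each other, *Selp* led in the reisolated shLuci cells at 32.6 ± 11.6 CPM per kb, apart from *Aldh1a1* (10.5 ± 1.81) and *Sult1a1* (9.09 ± 2.43), which overlapped each other, and *Wwtr1* was lowest at 0.36 ± 0.06. In the reisolated shRad21 cells, *Sult1a1* (41.6 ± 13.8), *Clu* (36.5 ± 2.12), *Aldh1a1* (31.8 ± 5.86), *Nupr1* (27.6 ± 3.70), and *Selp* (27.2 ± 0.24) came in that order, each overlapping with the next. *Clu* thus stood next to last in the control cells (0.92 ± 0.35) and level with the leading genes in the knockdown cells. In culture, *Selp* (6.41 ± 2.37), *Ehd3* (6.08 ± 1.33), *Nupr1* (5.18 ± 0.84), and *Clu* (4.49 ± 1.32) led in control cells, each overlapping with the next, and *Nupr1* (11.9 ± 3.44) and *Clu* (10.98 ± 1.86) led in knockdown cells. *Klrb1c* was lowest in both culture groups.

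26 further genes that are commonly reported higher in aged HSCs were followed in the same fits, also listed with earlier results of these data known. In vivo, 22 of the 26 rose, 0 fell, and the median was 1.79, beside 5.65% of 15938 tested genes that rose. *Osmr* (3 to 17 reads in shLuci) and *Sbspon* (6 to 17 reads) entered the test through the shRad21 libraries, where they are high. With at least 10 counts in every library, 18 rose. *Vwf*, von Willebrand factor, rose from 15.9 ± 0.71 to 139.9 ± 8.16 CPM (log2 3.16, SE 0.08, adjusted p = 8.136e-08). *Itgb3*, the integrin beta 3 chain (2.31), *Slamf1*, the HSC surface marker CD150 (2.05), the transglutaminase *Tgm2* (1.66), *Cavin2*, a component of caveolae (2.44), *Mmrn1*, multimerin 1 (1.51), and the receptor *Neo1* (2.30) had the next smallest adjusted p-values. *Alcam*, *Ramp2*, *Rorb*, and *Cdc42* did not pass, and *Cdc42*, a small GTPase, was at 825 ± 19.5 and 833.5 ± 4.68 CPM.

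In culture, 22 of the 26 were tested, 8 rose, 0 fell, and the median was 0.50, beside 6.18% of 15543 tested genes that rose. *Mmrn1* (1.64), *Trpc6*, a cation channel (1.59), *Slamf1* (1.21), and *Cavin2* (1.86) had the smallest adjusted p-values, followed by *Itga2b*, *Vwf* (0.80), *Ghr*, and *Itgb3* (0.73). With the replicate block, 16 passed, 15 of them higher, beside 1447 higher and 1739 lower of all 15543 tested genes. Without shLuci replicate 2 only 5 passed, beside 1378 of 15913 tested genes in either direction. Beside 4.67% of 17050 genes in either direction, the difference between the settings passed for 10 of the 26, each more negative in culture. 1 of these, *Sbspon*, was too low to be tested in culture and entered through the in vivo libraries. Among the others, *Vwf* (-2.35) and *Tgm2* (-2.11) had the smallest adjusted p-values, whereas it was 0.14 (SE 0.20) for *Mmrn1* and 0.04 (SE 0.26) for *Itga2b*.

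**Figure D5:**
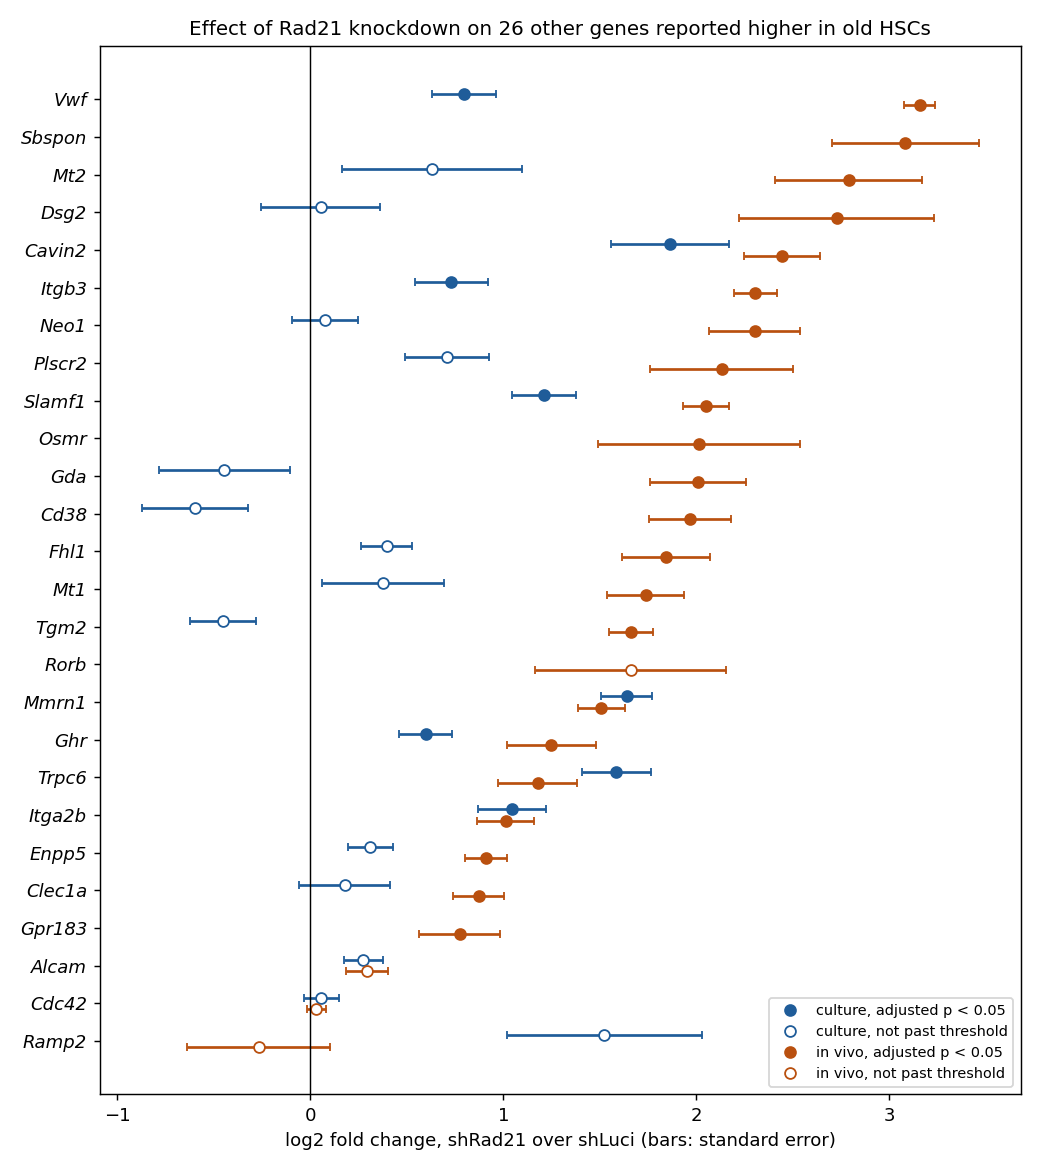
Log2 fold changes with SE of the 26 further genes in culture (blue) and in vivo (orange), in the order of the in vivo value. Filled points passed the threshold. All in vivo values but that of *Ramp2* are above 0, and 4 genes have no culture point because they were not tested.

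Markers of other cells and of HSCs moved beside these genes, and their part in the results was not tested. Of all tested genes, 5.65% rose and 5.32% fell in vivo, and 6.18% rose and 8.06% fell in culture. The summed level of 11 megakaryocyte and platelet genes was between 89.2 and 107.9 CPM in shLuci and between 173.6 and 224.9 CPM in shRad21 cells in vivo, with 6 of 9 tested genes higher and *Gp6*, a platelet-defining collagen receptor, at 0 in every group. In culture these sums overlapped (376 to 435.9 and 252.4 to 395.9 CPM), with 4 of 7 tested genes higher (*Gp1ba*, *Gp5*, *Gp9*, and *Treml1*) and 2 lower, the platelet chemokines *Pf4* and *Ppbp*. The 11 endothelial genes summed to between 172 and 227.5 CPM and between 297.3 and 323.3 CPM in vivo, and to between 240.3 and 310 CPM and between 342 and 374.8 CPM in culture. *Sox17* was at 0 in every group. In vivo, 4 of 9 tested genes rose (*Cldn5*, *Tek*, *Emcn*, and *Tie1*) and 0 fell. In culture, 2 of 8 rose (*Tek* and *Emcn*) and *Sox18* fell. Of the 12 stem and progenitor markers, *Slamf1*, *Mecom*, and *Meis1* were among those that rose in both experiments, and *Kit* and *Flt3*, a receptor of lymphoid-primed progenitors, fell in both. *Flt3* went from 701.6 to 227.7 CPM in vivo, where *Cd34*, a progenitor marker, also fell (log2 -0.26). *Procr*, an HSC marker, was at 83.5 and 78.7 CPM in vivo and did not pass. Of 6 B cell markers, 4 fell in vivo, with sums of 83.4 to 113 and 54.0 to 71.7 CPM. Whether their reads came from cells inside or outside the gate was not tested.

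By Pearson correlation of log2(CPM + 0.5) over the 12 libraries, which lie in 4 groups and so share group means, the gene most like *Selp* was *Dhrs3* (r = 0.994), a retinaldehyde reductase that was itself in the retinoid list and passed in neither experiment. *Sult1a1* was most like *Mcoln3* (0.989), *Aldh1a1* most like *Gstm2* (0.985), *Klrb1c* most like *Snora31* (0.981) and then *Gda* (0.976), and *Wwtr1* most like *Vwf* (0.977). *Gda*, guanine deaminase, and *Vwf* are among the 26 further genes. *Nupr1* was most like *Reep2* (0.972) and *Clu* most like *Gpx8* (0.964). The likeness was lower for the 2 genes that changed in opposite directions, *Jam2* with *Padi4* (0.909) and *Ehd3* with *Gstm5* (0.901).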

How the data were processed

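LSK cells infected with shLuci or shRad21 lentivirus were profiled by RNA sequencing (12 libraries, 4 groups of 3). The authors removed rRNA reads, trimmed the others, and ran TopHat2 2.0.11 on GRCm38 and HTSeq 0.6.1 on genes. The deposited values are raw counts of 46078 genes, and all columns were used. The strand setting and annotation release are not given in the sources used here. Gene symbols were matched by identifier to GENCODE M21 (45229 genes).

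The members and gene lists were chosen with earlier results of these data known. Genes kept by filterByExpr (minimum count 10, minimum total 15) were tested with edgeR 4.0.16 (R 4.3.3), TMM scaling, glmQLFit, and glmQLFTest, with Benjamini-Hochberg adjustment over all tested genes and a threshold of 0.05. Each knockdown was fitted on the 6 libraries of its experiment, and the contrast of control cells and the difference between the settings on all 12 libraries. Steps were checked on data simulated from these libraries. Alternatives were DESeq2 1.42.0, upper-quartile and library-size scaling, no filter, at least 10 counts in every library, a replicate block, a single model of 12 libraries, and the omission of each library. The numbers of the labels were taken as pairs in culture, where same-numbered libraries correlated at 0.17 to 0.215, and not in vivo (0.036 to 0.0576). The replicate block was still run in vivo as an alternative, and the blocked fits of all 12 libraries held it for both experiments.

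Named were the 9 members, members of lists that passed the threshold (the 10 with the smallest adjusted p per comparison), the genes of most similar pattern, and markers. Other list genes and all neighbouring genes were named after their values had been seen. Some listed genes are not reported here. The floor of 3 counts covers counting error only, and the chi-square per degree of freedom of replicate counts was 6.16 to 22.6, so replicate spread exceeded counting error.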

Additional observations from a re-analysis of the deposited data

Results flagged for a closer look

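The effects of *Rad21* knockdown in culture and in vivo differed by the interaction test for 5 of the 8 genes tested in both settings. Of all 17050 tested genes, 4.67% passed that test in either direction. *Klrb1c* passed that test too, but entered the fit only through the in vivo libraries where it is high, so its value is a description. The differences of the log2 fold changes (culture minus in vivo) were -4.03 for *Clu*, -4.92 for *Klrb1c*, -1.85 for *Sult1a1*, -3.11 for *Ehd3*, -3.84 for *Jam2*, and -2.29 for *Wwtr1*. *Ehd3* and *Jam2* passed in opposite directions within the experiments. *Clu* passed as higher in both, *Sult1a1* and *Wwtr1* passed in vivo, and *Klrb1c*, with at most 15 reads per cultured library, was tested only in vivo. The kit, gate, and lane cannot be told apart from the setting.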

How the results depend on the processing

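The count of members called in vivo was 8 under every alternative run, and the direction of each member was kept in every alternative except for *Selp* in vivo, which ranged from -0.398 to 0.0863 when a library was left out and was above 0 only without shLuci replicate 1. The culture results depended most on the fit. There, 7 members passed instead of 4 with no filter on counts and 7 with the replicate block, and of the 26 further genes 15 passed with no filter and 16 with the block, instead of 8. Leaving out a library in turn gave between 4 and 6 members and between 5 and 10 of the further genes in culture, the lowest without shLuci replicate 2. It gave between 7 and 8 members for the control cells and between 5 and 7 for the difference between settings, *Klrb1c* included in both. Of all values under alternatives, 513 kept direction and side of the threshold, 26 newly passed, 3 no longer passed, and 1 reversed. The cause was not tested.

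The counts of all genes called were 2213 in culture (3186 with the block, 1352 without shRad21 replicate 2), 1749 in vivo (2829 with no filter, 951 without shRad21 replicate 3), and 796 for the difference (1409 with no filter, 1283 in DESeq2, 492 without shRad21 replicate 2 of the culture). Scaling by library size moved the median of all genes between control cells to -0.18, and upper-quartile scaling moved it to -0.12, with 7 members called throughout. In vivo, where same-numbered libraries correlated only weakly, the block called 8 members as well. *Klrb1c*, with between 2 and 15 reads per cultured library, was removed by the filter there.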
